A study of Mus musculus with 9 samples.

Results

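Growth factor receptor tyrosine kinases are cell surface proteins that bind a secreted or membrane-held ligand, pair up and phosphorylate each other and their adaptors, which passes the signal to the RAS, PI3-kinase and phospholipase C pathways. Transcripts of 10 such receptors were followed: the epidermal growth factor receptor family members Egfr, Erbb2 and Erbb3, the platelet-derived growth factor receptors Pdgfra and Pdgfrb, the stem cell factor receptor Kit, the vascular endothelial growth factor receptor Kdr, the hepatocyte growth factor receptor Met, the glial cell line-derived neurotrophic factor receptor Ret, and the insulin-like growth factor 1 receptor Igf1r. All probe sets annotated to exactly 1 of these symbols were taken, 27 of the 45101 on the array, without regard to their values. The receptors themselves were chosen with earlier results of these data known. All 10 receptors passed the filter on dim probe sets and were tested among 13320 genes. In the eye these receptors are known from several settings: Kdr from vessels and from neural progenitors of the retina, Pdgfra from retinal astrocytes, Pdgfrb from pericytes, and Egfr from late progenitors and Müller glia.

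Expression was measured on 9 mouse arrays, 3 per group. ESC-RPCs are cells that the labels call retinal progenitors, made from the gene-targeted 46C embryonic stem cell line, a derivative of E14Tg2a.IV, so every ESC-RPC sample comes from 1 line. They went through 3 days as embryoid bodies with SB431542, an inhibitor of the activin and Nodal type I receptors, then culture on Matrigel without retinoic acid, a sort for Sox1+ cells at day 7 (35.8% of cells), and culture with the gamma-secretase inhibitor DAPT at 10 µM and with basic fibroblast growth factor at 20 ng/ml. Both ESC-RPC groups share all of this. The treated group also received 1 ng/ml recombinant DKK1, a secreted inhibitor of Wnt signalling, for 1 day, and the untreated group did not. The primary RPCs were taken from dissociated neural retina of C57 mice at postnatal day 1, and are named both as cells of newborn mice and as primary cultured cells. The primary cells therefore differ from the ESC-RPCs in strain, source and culture as well as in origin, and these cannot be told apart. The labels name the replicates as biological, and do not say whether they were separate cultures or litters.

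The arrays give a signal per probe set in linear MAS5 intensity units, scaled to the same trimmed mean on every array, and precision is limited by having 3 arrays a group. Values are given per array or as mean ± SD (n = 3), and differences as log2 differences ± SE from limma. A gene was called at a Benjamini-Hochberg adjusted p below 0.05 over all 13320 genes. In bulk RNA, fewer cells of a type and less RNA per cell cannot be told apart. The labelled identity was checked against marker genes. Of 10 retinal progenitor genes, 7 were lower on the untreated than on the primary arrays and 3 (Sfrp2, Fgf15 and Sox2) higher, with a summed signal of 20910 to 23120 against 44530 to 51040. The eye field genes Rax and Six6 averaged 28.2 ± 21.4 and 46.0 ± 12.9 on the untreated ESC-RPC arrays, near the 40th percentiles of the arrays (44.7 to 52.9), against 3939 ± 943 and 4386 ± 440 on the primary arrays. Six3, Lhx2 and Pax6 were lower as well but averaged 1054, 1379 and 1323 on the untreated arrays. The pluripotency gene Nanog averaged 2103 ± 299 and 2.35 ± 0.558. Of 10 general neural progenitor genes, 5 were higher, 3 lower (Msi1, Notch1 and Dach1) and 2 not called, with Sox1, the gene used for the sort, at 2831 ± 59.8 on untreated and 24.4 ± 16.5 on primary arrays. Summed signal of 10 photoreceptor markers was 6432 to 7857 on the untreated and 47420 to 66670 on the primary arrays. Otx2 (5470 ± 689) and Neurod1 (1449 ± 182.5) made up most of the untreated sum. They averaged 15490 and 16850 on the primary arrays. Of the 10 markers, 7 lay below the 40th percentile on all untreated arrays, among them Crx (19.0 ± 16.9, against 4478 ± 1461 on primary arrays), and 1 did so on all primary arrays.

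Of the receptors, 7 have a RefSeq promoter entry in build GRCm38.p6, and 3 of them, Pdgfra, Kit and Kdr, are neighbours on chromosome 5. Their annotated starts lie 422.7 kb apart between Pdgfra and Kit, and 403.5 kb apart between Kit and Kdr. Pdgfra was higher and Kdr lower in ESC-RPCs than in primary cells, while Kit was not called, and for this reason the 250 bases before each start are printed 5′ to 3′ on the gene's own strand. Capitals mark a GC box, the letters GGGCGG read on either strand, a sequence known to bind Sp1-type factors.
Pdgfra, chr5:75152001-75152250, plus strand: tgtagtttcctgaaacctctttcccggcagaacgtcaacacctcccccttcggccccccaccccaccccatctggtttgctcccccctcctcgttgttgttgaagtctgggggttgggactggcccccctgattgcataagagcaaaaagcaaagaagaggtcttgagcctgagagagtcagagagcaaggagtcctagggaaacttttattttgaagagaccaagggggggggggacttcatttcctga
Kit, chr5:75574737-75574986, plus strand: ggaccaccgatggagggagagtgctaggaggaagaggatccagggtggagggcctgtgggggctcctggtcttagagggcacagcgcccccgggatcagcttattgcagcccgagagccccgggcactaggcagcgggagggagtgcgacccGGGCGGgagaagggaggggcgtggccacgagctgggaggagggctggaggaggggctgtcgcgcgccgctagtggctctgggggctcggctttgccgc
Kdr, chr5:75978456-75978705, minus strand: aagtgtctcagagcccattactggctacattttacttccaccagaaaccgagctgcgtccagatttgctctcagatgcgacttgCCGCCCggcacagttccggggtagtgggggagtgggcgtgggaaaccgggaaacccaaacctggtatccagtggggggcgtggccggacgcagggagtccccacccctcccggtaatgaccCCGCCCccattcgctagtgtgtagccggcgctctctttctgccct
The GC box occurred 1 time before Kit, 2 times before Kdr and 0 times before Pdgfra, and in 32.7% of 32851 RefSeq promoter stretches of the same length. CpG dinucleotides numbered 17 before Kit, 16 before Kdr and 4 before Pdgfra, against a median of 6 over all stretches. The G and C share was 70.8%, 61.6% and 54.4% in the same order, with a median of 52.4% over all. None of the 3 stretches held, on either strand, TATAAA (12.4% of all stretches), CCAAT (33.8%), TAATCC, the core of Crx and Otx sites (6.25%), TAATTA, a homeodomain core (4.84%), or CTTTGA, a TCF and LEF core (13.8%). No motif overlapped another of those searched in these 3 stretches, and a match or its absence describes only the letters of these windows.

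Untreated ESC-RPCs were compared with the cells labelled primary RPCs to ask how far their receptor transcripts are alike. The primary arrays also carried the photoreceptor signal given above. Their summed signal of 12 microglia and macrophage markers was 1143 to 2011, against 254.1 to 325.1 on untreated arrays. Of the 10 receptors, 4 were higher in the ESC-RPCs (Egfr, Erbb3, Pdgfra and Pdgfrb), 4 were lower (Kdr, Ret, Met and Igf1r) and 2 were not called (Kit and Erbb2). Over all genes 53% were called, 26.1% higher and 26.9% lower, so a call by itself sets no receptor apart from the rest of the transcriptome, and the sizes below carry the description. The groups did not overlap for 8 of the 10, and for 60% of all genes. The median log2 difference of the 10 receptors was 0.35, against -0.0068 over all genes. DKK1-treated cells were set against the same 3 primary arrays, and 5 receptors were higher, 4 lower and 1 not called. Of all genes, 52.8% were called in that comparison, 26% higher and 26.8% lower, and the groups did not overlap for 7 receptors and for 59.2% of all genes. Because both comparisons use the same primary arrays, their values are given side by side and are not independent.

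**Figure D1:**
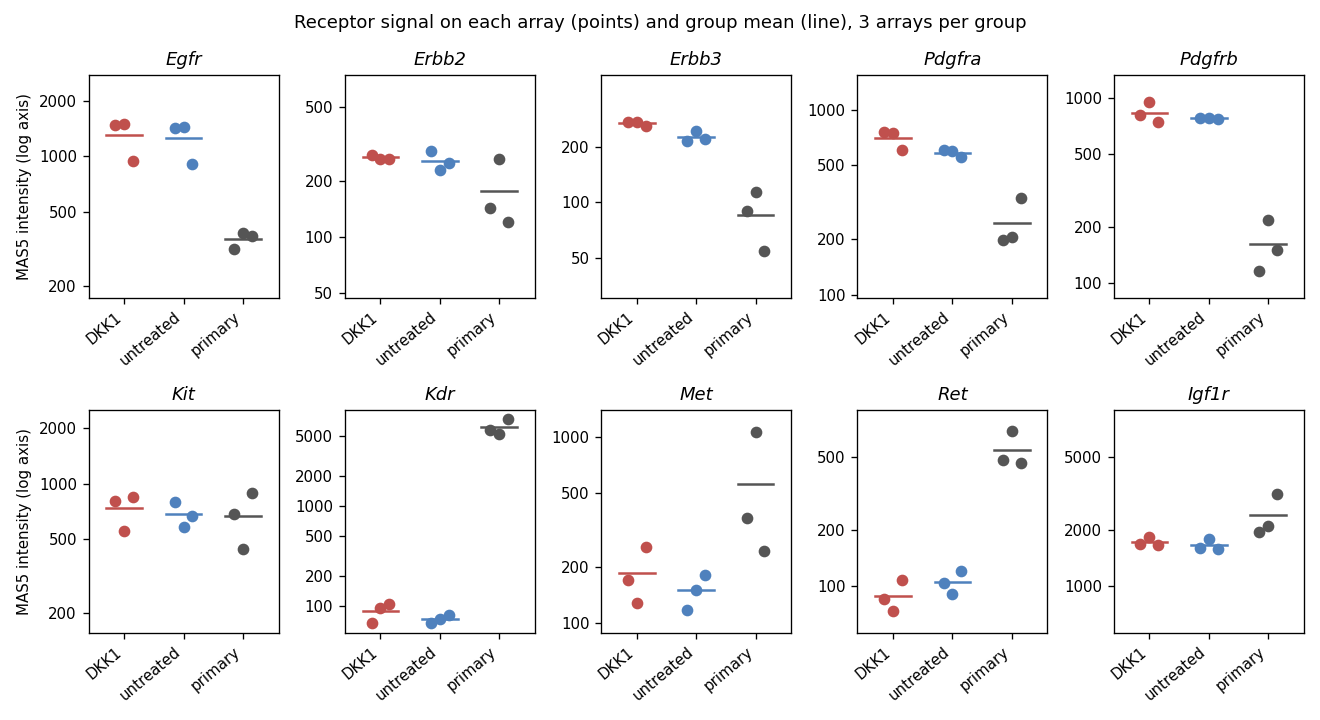
MAS5 intensity of each receptor (vertical log axis, arbitrary intensity units, with its own range per panel) on each array (points, replicates 1 to 3 from left to right) and the group mean (line), with 3 arrays per group. The 3 primary arrays lie far above all ESC-RPC arrays for Kdr (5186 to 7316 against 67.8 to 104) and below them for Egfr, Erbb3, Pdgfra and Pdgfrb.

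Among the receptors of the epidermal growth factor family, Egfr, which binds Egf, Tgfa, Hbegf and Btc, was higher in ESC-RPCs. Its brightest probe set read 1420, 1430 and 908 on untreated arrays 1 to 3, and 1483, 1495 and 942 on DKK1-treated arrays 1 to 3. On the primary arrays it read 317, 386 and 370. All ESC-RPC arrays exceeded all primary arrays, and array 3 was the lowest in both ESC-RPC groups. The log2 difference from primary cells was 1.78 ± 0.21 for untreated cells (limma adjusted p = 6.34e-05) and 1.84 ± 0.21 for treated cells (limma adjusted p = 5.04e-05), or 3.44-fold and 3.59-fold.

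Erbb3, which binds neuregulins but has little kinase activity of its own and signals through a partner, was higher in the same direction. It read 216, 244 and 219.5 on the untreated arrays, 271, 273 and 259.6 on the treated arrays, and 89.6, 114 and 54.6 on the primary arrays. The primary arrays did not overlap with either ESC-RPC group. Its log2 differences were 1.46 ± 0.24 (limma adjusted p = 0.000474) and 1.70 ± 0.24 (limma adjusted p = 0.000167).

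Erbb2, the family member without a known ligand and the usual partner of Erbb3, behaved less clearly because 1 primary array stood apart. It read 290.5, 230.2 and 252 on the untreated arrays, 278, 263 and 264 on the treated arrays, and 143, 264.5 and 121 on the primary arrays. Primary array 2 lay among the ESC-RPC values, and the other two primary arrays lay below all of them. The difference of 0.63 ± 0.25 between untreated and primary cells was not called (limma adjusted p = 0.0561), while 0.69 ± 0.25 between treated and primary cells was (limma adjusted p = 0.0382). Without primary array 2 the differences were 0.97 (limma adjusted p = 0.000462) and 1.03 (limma adjusted p = 0.000306). The call in treated cells was lost without any 1 of the treated arrays, untreated arrays 2 or 3, or primary arrays 1 or 3, with differences of 0.47 to 0.71 and limma adjusted p of 0.0505 to 0.132. Untreated cells gained a call with quantile normalisation (0.67, limma adjusted p = 0.0342) and with 1 median per array (0.70, limma adjusted p = 0.0203).

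Both receptors for platelet-derived growth factors were higher in ESC-RPCs. Pdgfrb, the receptor that marks pericytes and other mesenchymal cells, read 776, 780.1 and 771 on the untreated arrays and 805, 951 and 738 on the treated arrays. On the primary arrays it read 116, 218 and 152. The 3 untreated values had an SD of 4.66 around their mean of 776, and no ESC-RPC array overlapped with a primary array. The log2 difference was 2.31 ± 0.20 for untreated cells (limma adjusted p = 6.2e-06) and 2.40 ± 0.20 for treated cells (limma adjusted p = 4.49e-06).

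Pdgfra, which binds the Pdgfa homodimer and is known from astrocyte and oligodendrocyte precursors, read 604, 602 and 553 on the untreated arrays and 756, 748 and 606 on the treated arrays. On the primary arrays it read 197, 204.5 and 335. Primary array 3 was the highest of its group and still lay below every ESC-RPC array. It differed from primary cells by 1.30 ± 0.19 in log2 for untreated cells (limma adjusted p = 0.00026) and by 1.56 ± 0.19 for treated cells (limma adjusted p = 7.54e-05).

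Markers of other cell types that carry these receptors also differed, not all in the same direction. The summed signal of 18 mesenchyme and mural markers was 21760 to 25910 on the untreated arrays, 21610 to 24930 on the treated arrays and 4588 to 7319 on the primary arrays. Within that list 10 genes were higher in untreated cells, 4 lower and 2 not called, and 2 (Cspg4 and Anpep, both pericyte markers) were not kept by the filter. The fibroblast collagen Col3a1 averaged 8541 ± 796 in untreated and 41.5 ± 17.1 in primary cells, and the other higher genes were matrix genes or mesenchymal transcription factors. The lower ones were Thy1 and the mural genes Rgs5 (25.0 ± 6.94 against 554 ± 407), Tagln (276 against 1090.2) and Mcam (138 against 460.0). The summed signal of 9 retinal astrocyte markers was 21920 to 25550 on untreated, 21920 to 25740 on treated and 2540 to 2764 on primary arrays, and all 8 of those tested were higher. Aldoc (7944 ± 1187) and Gja1 (9295 ± 352) made up most of the untreated sum. S100b was not kept by the filter and averaged 28.7 ± 8.31 on untreated and 53.9 ± 18.9 on primary arrays. No probe set was annotated to Pax2 alone, so this astrocyte marker was not read. Gfap, the defining intermediate filament of astrocytes, averaged 111 ± 36.1 on untreated and 13.0 ± 5.97 on primary arrays. Slc1a3 and Aqp4 were also among 10 Müller glia markers, of which 6 were higher and 4 lower in untreated cells. The summed signal of those 10 was 39250 to 42170 on untreated, 39430 to 41580 on treated and 39500 to 43470 on primary arrays. Of 8 oligodendrocyte precursor markers tested, 3 were higher, 2 lower and 3 not called, with a median of -0.07, and the summed signal of 9 was 2764 to 4546 on untreated, 2780 to 5402 on treated and 3106 to 4705 on primary arrays. Olig1 was higher (1366 ± 667 against 59.1 ± 27.1), Olig2 was lower (550.1 ± 172 against 1368 ± 458), and Sox10 was near the filter level in both groups, at 49.4 ± 15.1 and 50.6 ± 17.8. The part of these cell types in the Egfr, Pdgfra and Pdgfrb differences was not tested.

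Kit, the receptor for stem cell factor, was not called in either comparison. It read 798, 582 and 672 on the untreated arrays, 809, 556 and 842 on the treated arrays, and 685, 444 and 887 on the primary arrays. All 3 groups overlapped, and in each of them array 2 was the lowest. The log2 difference was 0.07, with a 95% interval from -0.47 to 0.62, for untreated cells (limma adjusted p = 0.828). For treated cells it was 0.16, from -0.38 to 0.71 (limma adjusted p = 0.601). The second Kit probe set was also not called in either comparison, at 0.20 and 0.50.

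Kdr had the largest difference of the 10 receptors. This receptor for Vegfa and Vegfc is the main mitogenic receptor of endothelium. It read 67.8, 74.7 and 80.7 on the untreated arrays, 68.4, 95.4 and 104 on the treated arrays, and 5689, 5186 and 7316 on the primary arrays. No ESC-RPC array came near a primary array, although all 6 lay above their own 40th percentile. The log2 difference was -6.34 ± 0.18 (limma adjusted p = 3.79e-09) for untreated and -6.09 ± 0.18 (limma adjusted p = 4.67e-09) for treated cells, which is 80.8-fold and 68.3-fold lower. Only 1 probe set on the array represents Kdr, so no second probe set bears on it.

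Endothelial markers went both ways. Their summed signal over 16 genes was 1595 to 1830 on untreated, 1592 to 1969 on treated and 1075 to 1711 on primary arrays. Of the 11 that were tested, 3 were higher in untreated cells, 1 was lower and 7 were not called. The higher ones, which make up much of the ESC-RPC sums, were Sox17, also an endoderm gene (306 ± 80.2 against 19.6 ± 3.82), Ramp2 (414 ± 10.1 against 126 ± 28.5) and Emcn (179 ± 57.2 against 48.7 ± 20.0). The lower one was the tight junction gene Cldn5 (81.8 ± 9.62 against 269 ± 95.5). The filter left out Cdh5, Tek, Tie1, Icam2 and Erg, among them the defining adhesion molecule Cdh5 at 58.6 ± 34.5 and the receptor Tie1 at 5.48 ± 5.96 on the primary arrays. Primary array 2 had the highest signal of its group for 15 of 16 endothelial markers, including all those that the filter left out. Of the genes kept by the filter, 40.1% were highest on that array. Its 40th percentile was also higher, at 52.9 against 44.7 and 44.9 on primary arrays 1 and 3, so the 2 shares are not strictly alike. Without primary array 2 the Kdr difference of untreated cells was -6.44. The part of endothelial cells in the Kdr difference was not tested.

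Ret, the signalling receptor for glial cell line-derived ligands and known from ganglion, amacrine and horizontal cells of the retina, was lower in ESC-RPCs. It read 104.5, 90.8 and 121 on the untreated arrays, 85.2, 73.2 and 108 on the treated arrays, and 481, 689.6 and 465 on the primary arrays. The groups did not overlap. In log2 it differed by -2.36 ± 0.21 (limma adjusted p = 8.54e-06) in untreated and -2.61 ± 0.21 (limma adjusted p = 4e-06), or 5.13-fold and 6.12-fold lower. The summed signal of 15 markers of amacrine, horizontal and ganglion cells was 15990 to 20310 on untreated, 16810 to 23550 on treated and 23940 to 27990 on primary arrays, with 8 lower, 3 higher and 4 not called in untreated cells. Their part in the Ret difference was not tested.

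Met, the receptor of hepatocyte growth factor, was lower on average, with a wide spread on the primary arrays. It read 117, 150.4 and 181 on the untreated arrays, 171, 128 and 257 on the treated arrays, and 366, 1067 and 243 on the primary arrays. Primary array 2 lay far above the other two, and the highest treated array exceeded the lowest primary array. Untreated cells differed from primary cells by -1.63 ± 0.46 in log2 (limma adjusted p = 0.0127), and treated cells by -1.36 ± 0.46 (limma adjusted p = 0.0298). Without primary array 2 it was -1.02 (limma adjusted p = 0.0185) for untreated cells and -0.75 (limma adjusted p = 0.0641, not called) for treated cells, and without treated array 1 or 2 the latter was -1.33 (limma adjusted p = 0.0744) or -1.12 (limma adjusted p = 0.104). Primary array 2 was also the highest of its group for Erbb2, Egfr, Erbb3, Pdgfrb and Ret, but not for Kit, Kdr, Pdgfra or Igf1r. It was the highest as well for 15 of 18 mesenchyme and mural markers. These 15 include Cspg4 and Anpep, which the filter left out, while 40.1% of the genes kept by the filter were highest there. The 40th percentile of that array was 52.9, against 44.7 and 44.9 on primary arrays 1 and 3. The part of mesenchyme and mural cells in the values of these receptors was not tested.

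Igf1r, which binds the insulin-like growth factors Igf1 and Igf2, was lower by a small amount. It read 1604, 1804 and 1594 on the untreated arrays, 1694, 1835 and 1673 on the treated arrays, and 1972, 2119 and 3159 on the primary arrays. The groups did not overlap, but primary array 3 lay well above the other two. In log2, untreated cells differed by -0.51 ± 0.15 (limma adjusted p = 0.0181) and treated cells by -0.45 ± 0.15 (limma adjusted p = 0.031). Without primary array 3 it was -0.30 (limma adjusted p = 0.0237) and -0.24 (limma adjusted p = 0.0553, not called). Calls were also lost with 1 median per array (-0.44 and -0.40, limma adjusted p = 0.0578 and 0.0825), in untreated cells without untreated array 1 or 3 (-0.48 and -0.47, limma adjusted p = 0.0577 and 0.0558), and in treated cells without treated array 1 or 3 (-0.43 and -0.42, limma adjusted p = 0.0835 and 0.0806).

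The treated-cell calls of Erbb2, Met and Igf1r were each lost under further settings that left the differences as they were. Without the intensity trend the limma adjusted p was 0.0559, 0.0569 and 0.0587, and with only the 2 groups compared it was 0.0696, 0.0527 and 0.0599. That of Erbb2 was also lost without the filter (limma adjusted p = 0.0548).

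**Figure D2:**
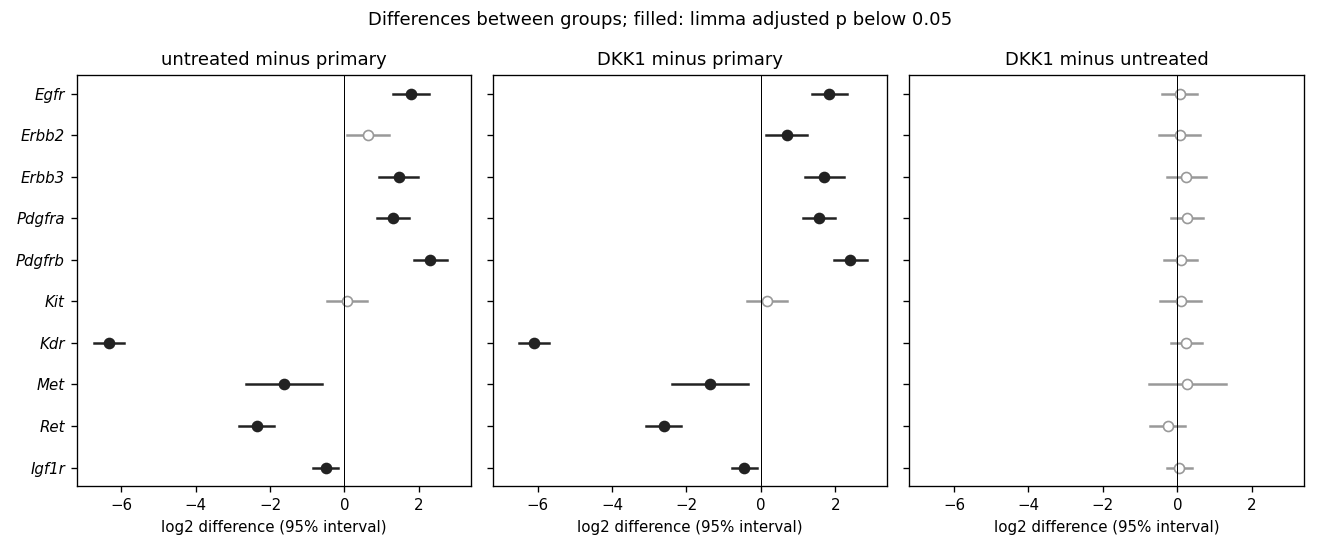
Log2 difference of each receptor (horizontal axis, log2 units, point with its 95% interval from limma) in the 3 comparisons, with filled points where the adjusted p was below 0.05 and open points elsewhere. The left and middle panels share the primary arrays, and in the right panel, DKK1-treated minus untreated cells, every interval includes 0.

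Several receptors are measured by more than 1 probe set, which gives a second reading within the same RNA. Of the 27 member probe sets, 22 passed the filter. In untreated against primary cells 7 were higher, 8 lower and 7 not called, where 47.5% of all 29052 kept probe sets were called. In treated against primary cells 8 were higher, 8 lower and 6 not called, against 47.6%. Every receptor whose gene was called had its probe sets on the same side wherever they passed the test. All 5 Igf1r probe sets were lower in both comparisons, by -1.20 to -0.51 in untreated cells. Both Pdgfrb probe sets were higher, the brighter by 2.31 in untreated cells, and the other, dim on all primary arrays, at least 2.27-fold in untreated and at least 2.55-fold in treated cells. Of 5 kept Egfr probe sets, 3 were higher in both comparisons, at 1.78, 1.06 and 0.88 in untreated cells. The 2 dimmest, averaging 36.7 and 53.0 there, were not called in either comparison, at -0.10 and 0.22 in untreated cells. The second Pdgfra probe set (0.39) and the second Ret probe set (-1.53, limma adjusted p = 0.0783) were not called in untreated cells. Neither was called in treated cells, at 0.50 (limma adjusted p = 0.149) and -1.06 (limma adjusted p = 0.208).

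**Figure D3:**
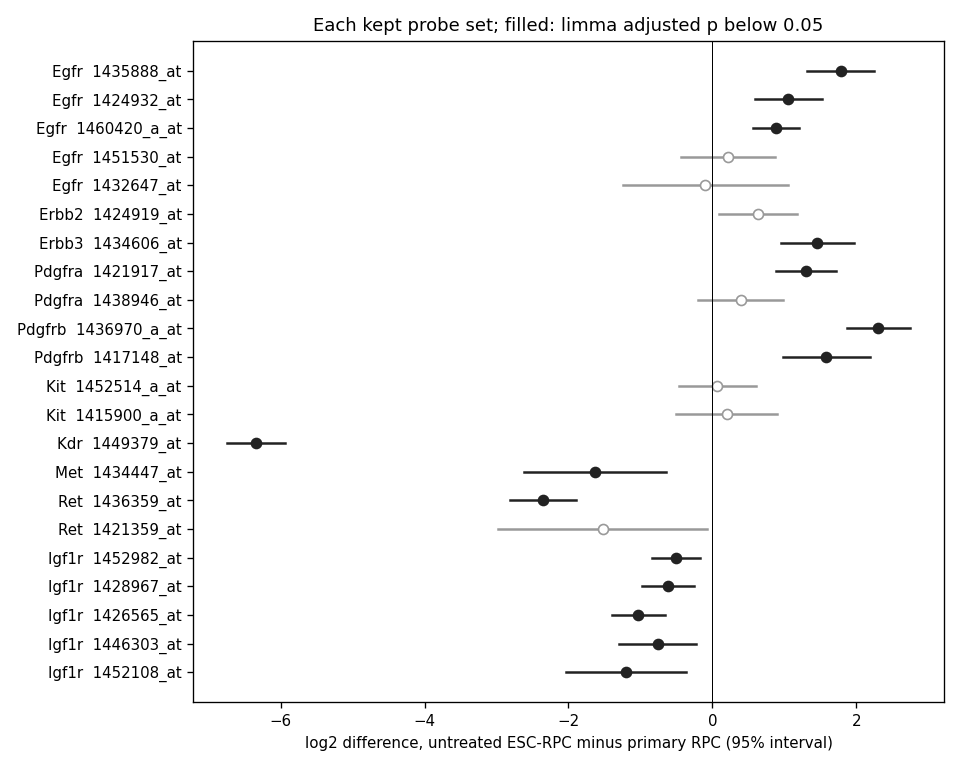
Log2 difference between untreated ESC-RPCs and primary RPCs (horizontal axis, point with its 95% interval from limma) for each of the 22 kept probe sets, named on the vertical axis and ordered within a receptor by their signal. Filled points passed an adjusted p of 0.05, and the 5 Igf1r probe sets lie below 0 and the 2 Pdgfrb probe sets above it, the dimmer of the latter as a fitted value and not a bound.

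DKK1 treatment was compared with no treatment to ask whether 1 day of Wnt inhibition changed the receptors. None of the 10 receptors was called, and neither was any of the 13320 genes (limma, 0%), although 308 genes (2.31%) had an unadjusted p below 0.05, none of them a receptor. For 9 of 10 receptors, and for 6588 of 13320 genes, the treated mean was above the untreated mean. The median log2 difference was 0.09 against -0.0018 over all genes. The differences of Egfr, Pdgfrb, Kit and Erbb2 fell below 0 in fits without 1 array, as given in the closing section. The groups did not overlap for 2 receptors, Erbb3 (259.6 to 273 treated, 216 to 244 untreated) and Pdgfra (606 to 756 treated, 553 to 604 untreated), and for 12% of all genes. The differences were 0.24 (95% interval -0.28 to 0.77) for Erbb3 and 0.26 (-0.17 to 0.68) for Pdgfra. Kdr differed by 0.24 (-0.17 to 0.65) and Met by 0.27 (-0.75 to 1.30). Ret was the receptor with a lower treated mean, at -0.26 (-0.73 to 0.22). The narrowest interval was that of Igf1r, 0.06 (-0.28 to 0.40).

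Arrays with the same replicate number in the ESC-RPC groups deviated together, as described with the processing, so the change within each pair is also given. Erbb3 was higher in the treated array of all 3 pairs, by 0.33, 0.16 and 0.24, and Pdgfra by 0.32, 0.31 and 0.13. Egfr was higher by 0.06, 0.06 and 0.05, with array 3 low in both groups. Ret was lower in all 3 pairs, by -0.29, -0.31 and -0.16. In all, 5 receptors were higher and 1 was lower in all pairs, 60% of them, where 37.4% of all genes went one way in all pairs. With the replicate number as a block on the 6 ESC-RPC arrays, 65 genes (0.488%) were called and no receptor was, the smallest limma adjusted p among them being 0.139 for Pdgfra.

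The blocked fit called 2 genes of the receptor pathways. Kitl, the stem cell factor that activates Kit, read 2793, 2094 and 2773 on the treated arrays and 2178, 1820.1 and 2344 on the untreated arrays. It was higher by 0.36, 0.20 and 0.24 in the 3 pairs, and by 0.27 ± 0.05 in the blocked fit (limma adjusted p = 0.0495). Lrig1, a membrane protein that promotes the degradation of receptors of the Egfr family and of Met, read 4113, 4106 and 4246 on the treated and 3633, 3606 and 3429.97 on the untreated arrays. It was higher by 0.18, 0.19 and 0.31 in the pairs, and by 0.22 ± 0.04 in the blocked fit (limma adjusted p = 0.04999). Both values lie just inside the threshold, and the block was itself chosen from the signal of the same arrays, so these p-values are descriptive. Without pair 1 the adjusted p was 0.133 for Kitl and 0.0565 for Lrig1, without pair 2 it was 0.0946 and 0.111, and without pair 3 it was 0.0301 and 0.0857, all from limma. Neither was called without the block.

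**Figure D4:**
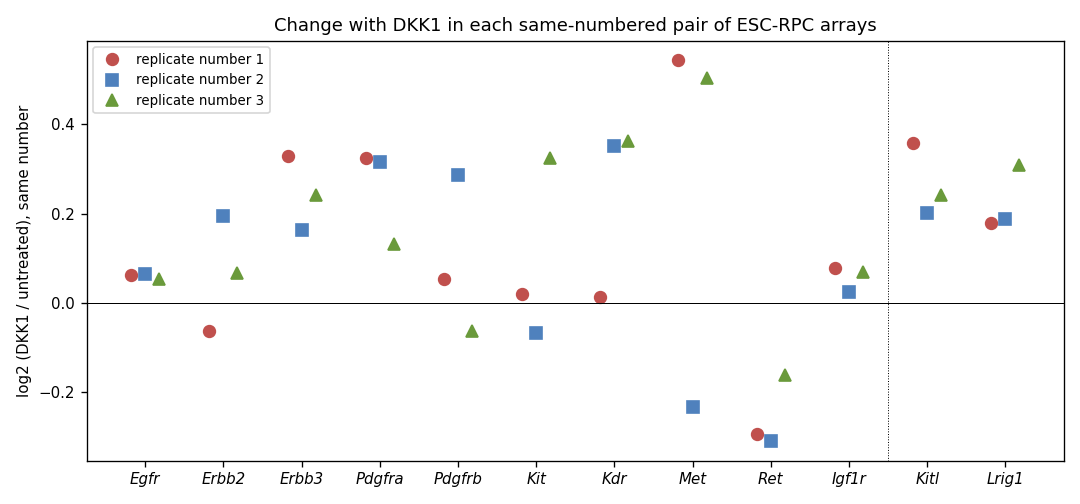
Log2 ratio of DKK1-treated over untreated signal (vertical axis) in each same-numbered pair of ESC-RPC arrays (circle, square and triangle for replicate numbers 1, 2 and 3) for the 10 receptors and, right of the dotted line, Kitl and Lrig1. Pdgfra, Erbb3, Kitl and Lrig1 lie above 0 in all 3 pairs and Ret lies below 0 in all 3.

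The ligands, co-receptors, adaptors and inhibitors of these receptors were described from lists written from textbook function. Of 93 such genes tested, 35 were higher in untreated than in primary cells, 21 were lower and 37 were not called, which is read against the 53% of all genes called. In treated cells 34 were higher, 21 lower and 38 not called. In treated against untreated cells none was called (limma, 0 of 93), with none at an unadjusted p below 0.05.

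Of 20 ligands, 9 were higher, 7 lower and 4 not called in untreated cells, with a median of 0.29 (0.19 with Nrg1, Pdgfb and Vegfd, each dim in 1 group, set at their lower bounds), and in treated cells 8 were higher, 6 lower and 6 not called. Kit was not called, and its ligand Kitl was higher, at 2114 ± 268 against 1059 ± 162 (1.00, limma adjusted p = 0.000314). Where Kdr was lower, its ligand Vegfa was lower too (523 ± 59.5 against 863 ± 107, -0.72, limma adjusted p = 0.000954), while Vegfc was higher (403 ± 50.3 against 163 ± 6.56, 1.30, limma adjusted p = 0.000244). Vegfd was dim on all primary arrays and at least 1.10-fold higher in untreated cells.

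The ligands of Egfr that were tested were mostly on the opposite side from the receptor. Ereg did not pass the filter, and no probe set was annotated to Areg alone. Hbegf (-1.06), Egf (-0.93) and Btc (-1.26) were lower in untreated cells, and Tgfa was not called, at 0.01. Nrg1, a neuregulin that binds Erbb3, was dim on all primary arrays and at least 4.02-fold higher in untreated cells (192 ± 29.5). The untreated and primary arrays overlapped for Nrg2 and Nrg4. Nrg3, which is not read here as a ligand of Erbb3, was lower (-1.18, limma adjusted p = 0.0444, not called in treated cells). It read 41.9, 55.3 and 25.3 on the untreated arrays, close to or below the filter level.

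Among the platelet-derived growth factors, Pdgfa (735 ± 118 against 363 ± 190.3, 1.13) and Pdgfc (664 ± 79.7 against 448 ± 67.9, 0.57) were higher. Pdgfb, the ligand of Pdgfrb made by endothelium, was dim on all untreated arrays and at least 2.32-fold lower. Igf2 was higher (4377 ± 119 against 2353 ± 583, 0.92) and Igf1 lower (326 ± 21.9 against 657 ± 169, -0.98). Hgf, the ligand of Met, and the Ret ligands Gdnf, Artn and Pspn did not pass the filter, and Nrtn was not called (0.25).

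Of 14 related receptors and co-receptors, 5 were higher, 1 was lower and 8 were not called, with the same counts in treated cells and a median of 0.49 in untreated cells. The neuropilins, which bind Vegfa beside Kdr, were both higher while Kdr was lower. Nrp2 averaged 1397 ± 106 against 239 ± 102 (2.66, limma adjusted p = 2.93e-05) and Nrp1 averaged 1164 ± 157 against 509 ± 46.5 (1.19, limma adjusted p = 3.83e-05). Flt1, a decoy receptor for Vegfa, was not called at 0.66. Of the co-receptors that present ligands to Ret, Gfra2 was higher (1.16, limma adjusted p = 0.00192), Gfra1 (-0.34), Gfra3 (1.43) and Gfra4 (-0.41) were not called, and Ncam1 was lower (-0.86, limma adjusted p = 0.000339).

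Of 29 adaptors and effectors, 10 were higher, 5 lower and 14 not called in both comparisons, with a median of 0.29 in untreated cells. Grb7, an adaptor that docks on Erbb2 and Ret, was dim on all primary arrays and at least 2.97-fold higher in untreated cells, at 141 ± 13.6. Pik3r1, the regulatory subunit of PI3-kinase, was lower (2293 ± 428 against 5561 ± 325, -1.29, limma adjusted p = 9.82e-05). Its relative Pik3r3 was higher (0.83), as were the phospholipase Plcg1 (0.97) and the transcription factor Stat3 (0.95).

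Of 30 inhibitors, binding proteins and feedback genes, 11 were higher, 8 lower and 11 not called in untreated cells, with a median of 0.16 (0.11 with Igfbp1, dim on the primary arrays, set at its bound), and 11 were higher and 9 lower in treated cells. Lrig1 was among the highest, at 3556 ± 110.2 against 347 ± 47.8 (3.37, limma adjusted p = 5.58e-09). The binding proteins of the insulin-like growth factors split, with Igfbp5 higher (5331 ± 497 against 456 ± 125, 3.58, limma adjusted p = 7.66e-08), Igfbp3 higher (2.06) and Igfbp7 lower (-2.53). Grb10, an adaptor that restrains Igf1r and the insulin receptor, was lower on every untreated array, at 911 ± 41.4 against 7992 ± 550.0 (-3.13, limma adjusted p = 1.94e-09). Dusp6, the phosphatase induced by and acting on ERK, was also lower, at 999.9 ± 136 against 6143 ± 699 (-2.62, limma adjusted p = 1.04e-07).

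**Figure D5:**
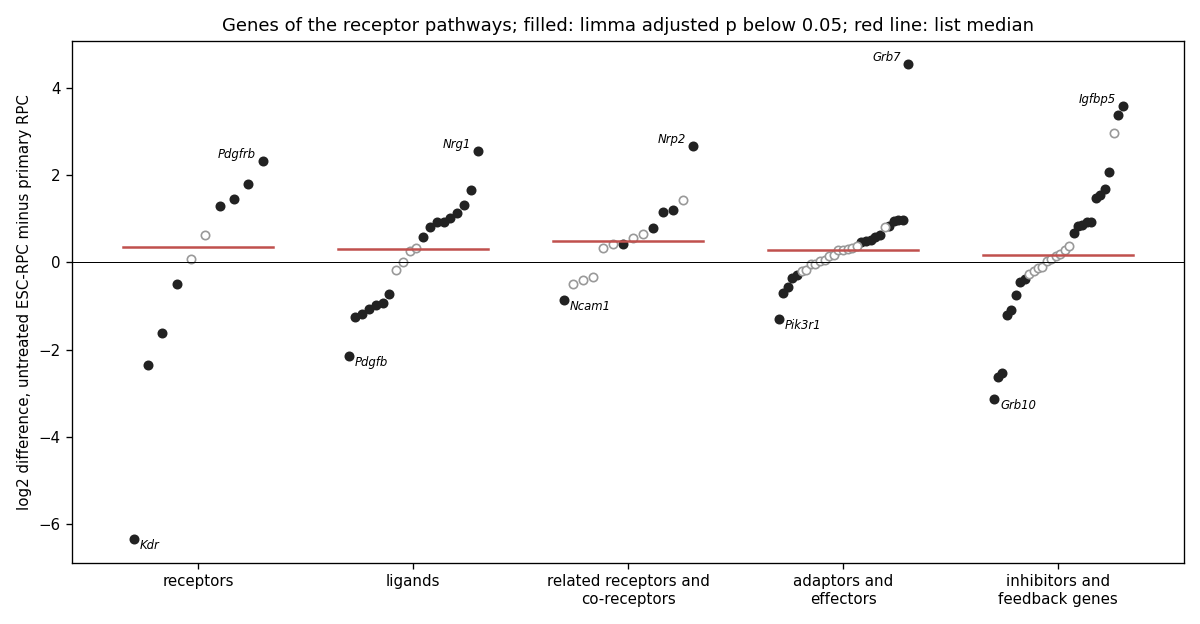
Log2 difference between untreated ESC-RPCs and primary RPCs (vertical axis) for the 10 receptors and the 93 tested genes of the 4 pathway lists (points, ordered by value within a list), filled where the limma adjusted p was below 0.05, with the list median as a red line. Kdr, at -6.34, lies lowest of all, and the points of genes dim in 1 group, such as Nrg1 and Grb7 (at least 4.02-fold and 2.97-fold), are fitted values and not bounds.

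For each receptor the genes with the most similar log2 profile over the 9 arrays were found among 12640 genes, as a description of arrays that share 3 groups. Egfr was most like Olig1 (Pearson r = 0.996), an oligodendrocyte lineage factor that read low on array 3 of both ESC-RPC groups as Egfr did. Kdr was most like Kcna5 (0.998), a potassium channel, and Prdm1 (0.998), a transcription factor of photoreceptor precursors whose signal averaged 5288 in primary and 89.8 in untreated cells. Met, with its high primary array 2, was most like the junction genes Ajuba (0.988) and Pkp2 (0.988), and Erbb2 most like Ezr (0.986) and Cldn10 (0.980). Pdgfrb was most like Zfp811 (0.9975) and Emp2 (0.997), Pdgfra like Tmem35a (0.995) and Zscan21 (0.993), and Erbb3 like Tex19.1 (0.991) and Cbln4 (0.991). Ret was most like Rpp30 (0.996) and Luc7l2 (0.995), and Igf1r like Cdk19 (0.979) and Mindy1 (0.977). Kit, which was not called, had the weakest best likeness, to Emc9 at 0.914 and S100a1 at 0.909, and no gene above 0.95, where Kdr had 920 (genes with r above 0.95).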

How the data were processed

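The deposited values are intensity values on a linear scale, made by the authors with MAS5 according to the submitters' processing notes, and each array has 1 value for a probe set. No version or setting is given in the sources used here. The deposited columns share the same mean after trimming 2% at either end. Log2 was taken with no further normalisation. Probe sets had to exceed the 40th percentile of the array in question on 3 or more of the 9 arrays, which left 29052 of 45101, 24773 with 1 gene. Each of 13320 genes was represented by the brightest of its probe sets that passed, by mean log2 value. A gene's group was dim where all its arrays lay below those percentiles, and its fold was then computed against them and printed as "at least".

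The tests used limma 3.58.1 (R 4.3.3) on all 9 arrays together, each group with its own mean, with an intensity trend, two-sided moderated tests and Benjamini-Hochberg adjustment over all genes at 0.05. The fit was tested on simulated data. Named genes were all receptors, up to 6 called genes per pathway list with the largest difference, the receptors' ligands and co-receptors, the 2 most alike genes per receptor, and markers beside a receptor they move with. The receptors and lists were chosen with earlier results of these data known. Same-numbered treated and untreated arrays deviated together (correlations of deviations from the group means across genes 0.123, 0.195 and 0.318). Different-numbered ones gave -0.234 to 0.0681. The pairing is thus taken from the values, is not stated by the labels and remains unsure. Same-numbered correlations with the primary arrays were 0 or below (-0.0433 to -2.36e-06). Symbols came from the platform annotation and promoters from RefSeq.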

Additional observations from a re-analysis of the deposited data

How the results depend on the processing

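Each receptor's difference was recomputed with quantile normalisation, with 1 median per array, without the filter or with it at the 60th percentile, with 32 added before the logarithm, with all kept probe sets of a gene averaged, without the intensity trend, with only the 2 groups compared, with the replicate block, and without each array in turn. In untreated against primary cells 182 of these values kept direction and call, 3 gained a call (Erbb2), 3 lost one (Igf1r) and 2 reversed. In treated against primary cells 165 kept both, 24 lost the call (Erbb2, Met and Igf1r) and 1 reversed, and 6 to 9 receptors were called. The calls of Egfr, Erbb3, Pdgfra, Pdgfrb, Kdr and Ret held in all of them. The reversed values belong to differences that were never called: The untreated minus primary difference of Kit ranged from -0.20 to 0.30 over the fits without 1 array, with -0.05 without untreated array 1 and the lowest value without primary array 2, and the treated minus primary one from -0.11 to 0.39, lowest without the same array. Between treated and untreated cells Ret became 0.10 with its probe sets averaged. Without 1 array the treated minus untreated difference ranged from -0.16 to 0.28 for Egfr (below 0 without treated array 1, treated array 2 or untreated array 3), from -0.0095 to 0.17 for Pdgfrb (without treated array 2), from -0.018 to 0.28 for Kit (lowest without untreated array 2, and -0.017 without treated array 3), and from -0.011 to 0.16 for Erbb2 (without untreated array 2). The cause was not tested.

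Of all genes, 1 was called between treated and untreated cells without the intensity trend. The replicate block on all 9 arrays called 0 there and the replicate block on the 6 ESC-RPC arrays called 65, of which 2 were pathway genes. That pathway count ranged from 0 to 2 when a same-numbered pair was left out (an alternative chosen after seeing the data), and the count over all genes from 8 to 213. The pairing changed no call of a receptor between treated and untreated cells. With the replicate block on the treated and primary arrays, which were not found to be paired, the calls of Met, Erbb2 and Igf1r were lost.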
